A study of Mus musculus with 24 samples.

Results

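Interferon-stimulated genes were followed in RNA sequencing libraries of mouse microglia, the resident macrophages of the brain. The set is a list of 45 genes known to respond to interferon, of 35519 genes with a transcript in the quantification; all 45 were found by symbol and all 45 had at least 1 read. Ifi44 with 24 reads and Samd9l with 55 reads over the 24 libraries did not pass the filter on low counts, so 43 were tested.

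The libraries came from C57BL/6 mice, whole brain, with cells gated as Ly6C-CD11b+Fcrls+, and were made with the Smart-Seq2 protocol, which reads full-length cDNA without marking strand or single molecules. Each of the 4 sex and genotype groups (female WT, female NL4-/-, male WT and male NL4-/-, where NL4 is neuroligin-4, a synaptic adhesion protein) was sampled in a control state, with 2 libraries, and in a phagocytosis state, with 4. What was taken up in the phagocytosis state, and whether in the animal or in culture, is not given in the sources used here, nor are ages. The knockout could not be checked against its own transcript, because the transcript set holds 0 transcripts of Nlgn4l, which was not analysed here. Each library is listed with 1000 cells. Replicates are called biological in the submitters' design text, and p-values measure the spread between these samples. That text states 5 phagocytosis replicates per group, whereas 4 per group are in the labels used here.

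Type I interferons bind the receptor pair Ifnar1 and Ifnar2, whose Janus kinases Jak1 and Tyk2 phosphorylate STAT proteins, Stat2 among them. Stat2 joins Irf9 in the factor ISGF3, which binds interferon-stimulated response elements in the promoters of target genes, Irf7 and the antiviral effectors among them. In microglia the same programme is known from viral infection, ageing, injury and amyloid disease, and microglia that express it have been described as a distinct subset.

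The response element has a repeated GAAA core. It was searched as GAAA, any 2 bases and GAAA again (on the other strand TTTC, any 2 bases, TTTC), with overlapping matches allowed, in the 250 bases before the start of each gene in the RefSeq promoter table (GRCm38.p6). The table held 34 of the 45 genes, and 16 of them (47.1%) had a match, against 936 of all 27025 genes in it (3.46%). Of the genes that rose in the phagocytosis state 11 of 20 had a match, and of those that were tested and did not pass 5 of 12. A match is a run of letters, not a measured binding site, and its absence says only that these letters were not in that window. The stretches of up to 200 bases before the start are shown for 9 genes, selected with their values known, 5' to 3' on the strand of the gene, with matches in capitals and bases that GENCODE places inside the gene left out. Ifit1, Ifit3, Ifit3b, Isg15, Bst2, Oas1a and Rsad2 held a match and rose, Irf7 rose with no match in its window, and Gbp7 held a match and did not pass the test.
Ifit1 (chr19:34640689-34640870, plus strand): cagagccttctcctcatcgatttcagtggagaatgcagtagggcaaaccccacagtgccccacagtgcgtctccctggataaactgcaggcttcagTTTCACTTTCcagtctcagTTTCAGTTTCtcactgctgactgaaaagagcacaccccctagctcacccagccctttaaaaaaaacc
Ifit3 (chr19:34583329-34583528, plus strand): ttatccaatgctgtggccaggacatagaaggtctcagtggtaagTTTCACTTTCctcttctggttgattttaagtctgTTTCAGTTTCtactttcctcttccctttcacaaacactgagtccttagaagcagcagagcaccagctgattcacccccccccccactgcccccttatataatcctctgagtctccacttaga
Ifit3b (chr19:34607757-34607956, plus strand): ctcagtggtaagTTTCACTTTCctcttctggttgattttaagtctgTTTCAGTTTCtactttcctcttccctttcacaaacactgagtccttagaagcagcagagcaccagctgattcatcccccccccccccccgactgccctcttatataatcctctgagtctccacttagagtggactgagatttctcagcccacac
Isg15 (chr4:156200819-156201018, minus strand): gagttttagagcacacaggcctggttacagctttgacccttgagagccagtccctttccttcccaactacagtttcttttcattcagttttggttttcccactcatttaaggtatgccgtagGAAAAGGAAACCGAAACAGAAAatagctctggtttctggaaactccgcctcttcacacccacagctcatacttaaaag
Bst2 (chr8:71537473-71537672, minus strand): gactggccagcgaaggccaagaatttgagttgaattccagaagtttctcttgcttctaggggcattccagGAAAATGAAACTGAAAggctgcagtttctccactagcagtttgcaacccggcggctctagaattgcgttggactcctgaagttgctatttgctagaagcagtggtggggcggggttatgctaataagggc
Oas1a (chr5:120907526-120907725, minus strand): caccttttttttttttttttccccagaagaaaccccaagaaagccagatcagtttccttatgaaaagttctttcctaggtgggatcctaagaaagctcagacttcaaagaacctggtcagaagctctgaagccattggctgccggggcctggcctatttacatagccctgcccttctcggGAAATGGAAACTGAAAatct
Rsad2 (chr12:26456453-26456652, minus strand): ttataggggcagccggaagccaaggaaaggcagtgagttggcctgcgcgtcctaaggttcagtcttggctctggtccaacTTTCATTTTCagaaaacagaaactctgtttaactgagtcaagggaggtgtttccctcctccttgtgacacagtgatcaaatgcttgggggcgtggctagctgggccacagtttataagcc
Irf7 (chr7:141266482-141266624, minus strand): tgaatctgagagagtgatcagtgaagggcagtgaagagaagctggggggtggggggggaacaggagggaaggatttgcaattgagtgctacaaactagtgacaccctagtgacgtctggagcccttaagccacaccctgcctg
Gbp7 (chr3:142530136-142530335, plus strand): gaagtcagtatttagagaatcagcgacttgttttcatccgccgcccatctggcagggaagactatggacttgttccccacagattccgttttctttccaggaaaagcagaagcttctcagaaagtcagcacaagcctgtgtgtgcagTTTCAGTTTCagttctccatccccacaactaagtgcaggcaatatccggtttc
Ifit3 and Ifit3b carried the same 2 matches. Isg15 held 3 overlapping matches, the most in a promoter of the set shown here, and Bst2 and Oas1a held 2 overlapping matches each. The genes also lie close together: 25 of the 45 fell into 10 clusters with gaps of at most 300 kb. Ifit2, Ifit3, Ifit3b and Ifit1 span chr19:34550694-34650009, Rsad2 and Cmpk2 span chr12:26442746-26479837, and Oas2, Oas3 and Oas1a span chr5:120730333-120907521 in the GENCODE vM21 annotation.

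Depth ran from 421107 to 1013797 reads per library, so that a gene at 10 CPM (counts per 1000000 reads, scaled by TMM) rested on 4.21 reads in the shallowest library and 10.1 in the deepest. All 15 microglia markers were detected. A trio of control libraries (female NL4-/- 1, male WT 2 and male NL4-/- 1) stood apart in the share of reads on the satellite-like transcript Gm10800, 10.2% to 11.6% against 0.747% to 7.80% elsewhere, and the counts and medians of the comparisons that rest on the controls are given with and without these 3. In these bulk samples fewer cells of a type and less RNA per cell cannot be told apart.

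The set was higher in the phagocytosis state. Its genes were chosen with earlier results of these data known, so the shares below describe the set and are not independent evidence. Of the 43 genes tested, 29 rose and 0 fell at an adjusted p under 0.05 (edgeR, difference averaged over the 4 sex and genotype groups), where 8.41% of all 9803 genes rose and 5.18% fell (13.6% in all). DESeq2 called 32, with 14.4% of all genes, and 36 had an unadjusted p under 0.05 by edgeR, with 27.0% of all genes. The median log2 fold change was 1.38 over the set and -0.01 over all genes. The 3 genes that had a control group at 0 reads lie above 1.38 even at their lower bounds, so those bounds cannot move the median. A fold change above 0 was found for 41 of 43 genes, against 49.3% of all genes. Levels still overlapped: 1 gene, Rtp4, had every phagocytosis library above every control (0.796% of all genes did), while 19 had at least 12 of the 16 phagocytosis libraries above the highest control (4.38% of all genes).

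Without the 3 Gm10800-rich control libraries, which leaves 5 controls, 7 genes passed (Bst2, Ifit1, Ifit3, Irf7, Rtp4, Slfn5 and Zbp1, with 3.84% of all genes), while 40 of 43 fold changes stayed above 0 and the median was 1.54. The other 22 of the 29 had adjusted p-values of 0.0552 to 0.28 by edgeR. All 29 fold changes stayed above 0, 10 of them larger than before, and the SE of a gene of the set was 1.30 times as large at the median. In that fit Rsad2 had a log2 fold change of 4.94 ± 1.33, Ifitm3 2.22 ± 0.60 and Lgals3bp 0.95 ± 0.29. In 3 groups it has a single control, which is assumed to vary like the other libraries. With any 1 control left out, Gm10800-rich or not, 23 to 26 genes passed. Other cell markers moved with the state as well. The summed level of the 15 microglia markers was 50500 to 63840 CPM in controls and 31420 to 62530 CPM in phagocytosis libraries, with 7 of the markers lower and 1 higher by the same test. All 12 markers of border-associated macrophages had a higher mean in the phagocytosis state, with sums of 894.5 to 1533 CPM in controls and 1278 to 1954 CPM in phagocytosis libraries, of which Stab1 made up 95.7%. Monocyte markers summed to 18.4 to 96.1 CPM in controls and 25.8 to 247 CPM in phagocytosis libraries, with 12 of 13 higher on average. Neuronal markers summed to 6.14 to 13.6 CPM in controls and 12.8 to 107 CPM in phagocytosis libraries, with 10 of 12 higher on average. Uchl1 made up 68.4% of the neuronal sum, and 1 of the 12 neuronal markers passed the filter on low counts. Oligodendrocyte markers summed to medians of 157 and 206 CPM, with 7 of 10 higher, and B-cell markers to medians of 421 and 245 CPM, with 3 of 8 higher. Ighm made up 85.5% of the B-cell sum. The part of these markers in the rise of the set was not tested.

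**Figure D1:**
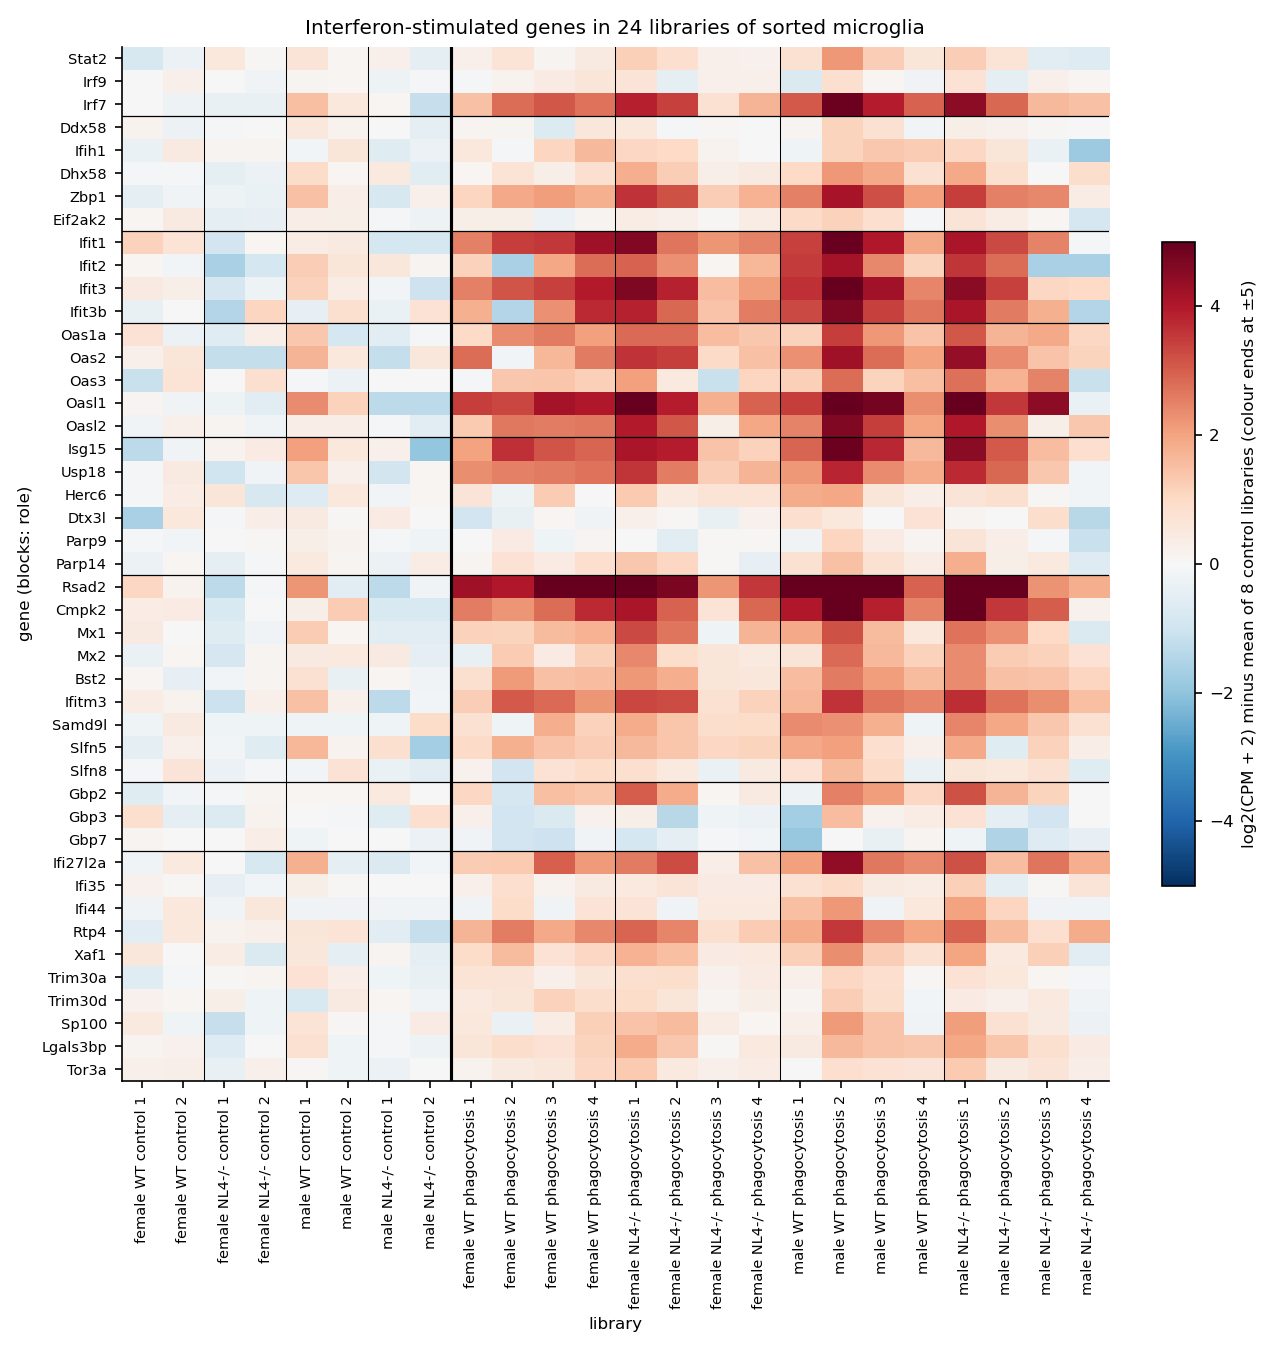
Levels of the 45 genes (rows, blocked by role) in the 24 libraries (columns, 8 controls left of the thick line and 16 phagocytosis libraries right of it), as log2(CPM + 2) minus the mean of the control libraries, with the colour scale ending at ±5. The IFIT and OAS families, Rsad2, Cmpk2 and Irf7 are red in most phagocytosis libraries and darkest in male WT 2 and male NL4-/- 1, whereas Gbp7 is pale or blue.

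Among the 3 transcription factors, 1 rose. Irf7, which drives the second wave of the interferon response, ranged from 7.19 to 55.5 CPM in controls (median 16.7) and from 32.5 to 594 CPM in phagocytosis libraries (median 149), with 13 of 16 above the highest control. Its log2 fold change was 3.23 ± 0.60 (SE, adjusted p = 0.00188). Stat2 and Irf9, components of ISGF3, did not pass. Stat2 had a control range of 20.9 to 59.8 CPM and a phagocytosis range of 23.7 to 176 CPM (log2 fold change 0.70 ± 0.25, adjusted p = 0.0636). Irf9 had 72.8 to 104 CPM and 51.8 to 152 CPM (0.22 ± 0.17, adjusted p = 0.446), so that its phagocytosis libraries lay on both sides of the controls.

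Of the 5 sensors, the Z-form nucleic acid sensor Zbp1 and the RNA helicase Dhx58 rose. Zbp1 went from 2.43 to 19.2 CPM in controls (median 4.70) to 7.91 to 130 CPM in phagocytosis libraries (median 35.0), a log2 fold change of 2.84 ± 0.50 (adjusted p = 0.000668). Dhx58, which modulates the RIG-I-like receptors, had medians of 31.03 and 58.3 CPM and a log2 fold change of 1.04 ± 0.27 (adjusted p = 0.0125), with 6 of 16 phagocytosis libraries above the highest control. The RNA receptors themselves and the kinase PKR were not called: Ddx58, the gene of RIG-I, had a log2 fold change of 0.24 ± 0.18, Ifih1, the gene of MDA5, 0.73 ± 0.34, and Eif2ak2, the gene of PKR, 0.35 ± 0.18.

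All 4 IFIT genes, whose proteins bind viral RNA and hold back its translation, rose, with a median log2 fold change of 3.39. Ifit3 ran from 9.59 to 51.2 CPM in controls and from 45.45 to 892 CPM in phagocytosis libraries, and its log2 fold change was 3.65 ± 0.65 (adjusted p = 0.00147). Ifit1 ran from 2.25 to 16.3 CPM and from 5.93 to 248.5 CPM (3.80 ± 0.69, adjusted p = 0.00147), with 15 of 16 phagocytosis libraries above every control. Ifit3 and Ifit3b share sequence: 61.8% of the 31-base words of Ifit3 occur in Ifit3b, so the split of reads between them is uncertain. Ifit2, with 0 reads in at least 1 library of each state, passed narrowly (adjusted p = 0.0454) and was called in 7 of 24 fits that each left out 1 library.

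All 5 OAS genes rose as well (median 3.07). Oas1a, an enzyme that makes the oligoadenylate activating RNase L, had medians of 15.8 CPM in controls and 77.8 CPM in phagocytosis libraries and a log2 fold change of 2.17 ± 0.46 (adjusted p = 0.00435); 68.8% of its 31-base words occur in other genes, nearly all in Oas1g. Oasl1, a catalytically inactive relative that restrains Irf7 translation, had 0 reads in both male NL4-/- controls and 300 reads in the 4 male NL4-/- phagocytosis libraries, at least 32.4-fold higher with the control group set to 3 reads. Over all libraries the pooled Oasl1 ratio was 20.1 (exact 95% interval 13.4 to 31.5, counting error only, as for every such interval here). Oasl2 had medians of 8.14 and 55.7 CPM (3.07 ± 0.68, adjusted p = 0.00631). Oas2 had 0 reads in the female NL4-/- controls and 73 in the matching phagocytosis libraries, at least 10.2-fold higher. Oas3, at a mean of 8.0 CPM, lay at the threshold (adjusted p = 0.0497) and was called in 8 of 24 leave-one-out fits.

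In the group of ISG15 and the ubiquitin or ADP-ribose enzymes 2 of 6 rose. Isg15, the ubiquitin-like modifier, had medians of 7.01 and 59.6 CPM (log2 fold change 3.49 ± 0.79, adjusted p = 0.00695). Usp18, which removes Isg15 from proteins and dampens Ifnar signalling, had medians of 11.2 and 69.7 CPM (2.72 ± 0.54, adjusted p = 0.00287). The other 4 did not pass: the log2 fold change was 0.81 ± 0.31 for the ligase Herc6, 0.71 ± 0.27 for Parp14, 0.15 ± 0.20 for Parp9 and 0.01 ± 0.25 for Dtx3l. Dtx3l and its partner Parp9 overlap on opposite strands, chr16:35926511-35939151 and chr16:35938470-35972605, and reads from the overlap cannot be assigned without strand.

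Of the 9 antiviral effectors 8 were tested and 7 rose. Rsad2, whose protein viperin makes a chain-terminating nucleotide, was at 0 to 21.4 CPM in controls (median 2.56) and at 15.8 to 537 CPM in phagocytosis libraries (median 156). Its log2 fold change of 5.58 ± 1.05 (adjusted p = 0.00192) is that of a gene with 24 reads in all controls together, and its pooled ratio was 35.3 (95% interval 23.6 to 55.2). Its neighbour Cmpk2, a mitochondrial nucleotide kinase, had 10 control reads and 471 phagocytosis reads, a pooled ratio of 20.3 (95% interval 10.9 to 42.6). Bst2, or tetherin, which holds budding virus at the cell surface, ran from 105.6 to 241 CPM in controls and from 207.5 to 850.4 CPM in phagocytosis libraries (1.65 ± 0.27, adjusted p = 0.000453). Ifitm3, which blocks fusion of viruses in endosomes, ran from 17.0 to 126 CPM and from 77.7 to 609 CPM (2.58 ± 0.47, adjusted p = 0.00172). Mx1, Mx2 and the Schlafen gene Slfn5 rose, with log2 fold changes of 2.05 ± 0.55, 1.38 ± 0.38 and 1.17 ± 0.35. GENCODE vM21 lists Mx2 as a polymorphic pseudogene. Whether either Mx gene yields a working protein in these mice was not tested. Slfn8 did not pass (0.51 ± 0.26), and the untested Samd9l had 2 control reads and 53 phagocytosis reads.

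The guanylate-binding proteins, GTPases that act on pathogen vacuoles and respond most to interferon-gamma, did not move as one. Gbp2 rose, with medians of 10.1 and 26.1 CPM and a log2 fold change of 1.76 ± 0.55 (adjusted p = 0.038), though it was called in 13 of 24 leave-one-out fits. Gbp3 (-0.12 ± 0.35) and Gbp7 (-0.48 ± 0.20) were the 2 genes of the set with a negative fold change, and neither passed. Gbp7 ran from 98.3 to 149 CPM in controls and from 30.4 to 130 CPM in phagocytosis libraries, with 0 of 16 above the highest control (adjusted p = 0.109).

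Of the remaining 10 genes 9 were tested and 7 rose. Lgals3bp, a secreted galectin-binding glycoprotein, had the most reads of the set and ran from 216 to 576 CPM in controls and from 350.3 to 1284 CPM in phagocytosis libraries (1.08 ± 0.24, adjusted p = 0.00479). Rtp4, a receptor chaperone that restrains the interferon response, ran from 2.40 to 13.6 CPM and from 15.1 to 112 CPM without overlap (2.43 ± 0.40, adjusted p = 0.000189). Smaller rises were found for Tor3a (0.63 ± 0.16), Trim30a (0.53 ± 0.16) and Ifi35 (0.52 ± 0.15). Ifi27l2a (2.56 ± 0.56) and Xaf1 (1.21 ± 0.31) also rose, whereas Sp100 (0.94 ± 0.37) and Trim30d (0.54 ± 0.21) did not pass. The untested Ifi44 had 2 control reads and 22 phagocytosis reads. Per length, on the TPM scale, Bst2 was the most abundant transcript of the set in the phagocytosis state, at 581 ± 253 TPM (SD, n = 16), followed by Ifitm3 at 440 ± 271, Lgals3bp at 263 ± 121 and Ifi27l2a at 237 ± 177 TPM. Neighbours in this order differed by less than the SD of either gene, except that Ifitm3 and Lgals3bp differed by more than the SD of Lgals3bp. Samd9l, at 2.06 ± 1.95 TPM, was the lowest.

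**Figure D2:**
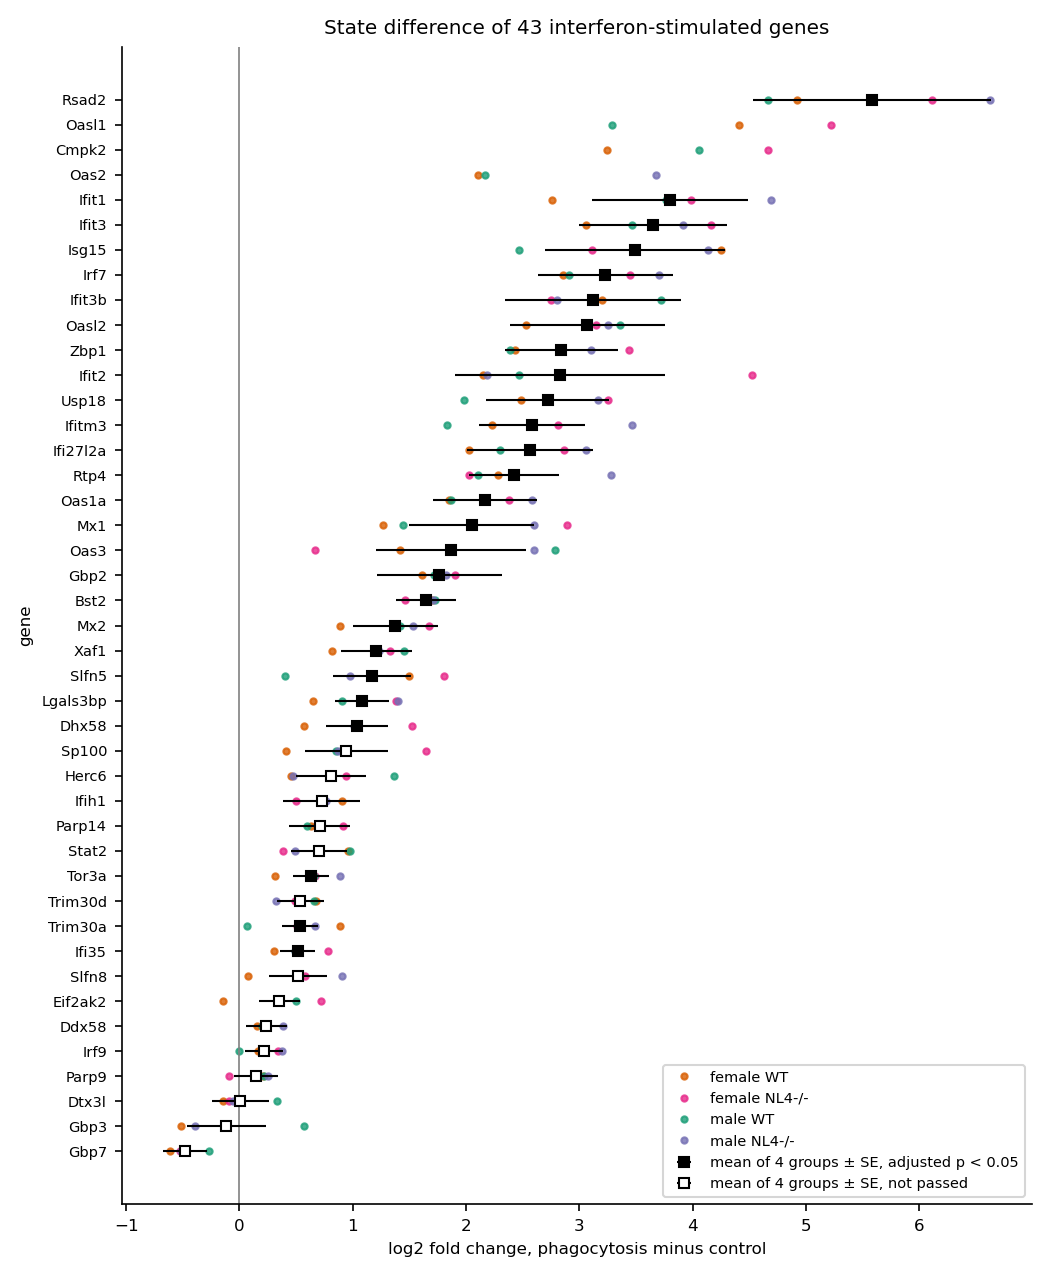
Log2 fold change between phagocytosis and control for the 43 genes tested. Squares are the mean over the 4 sex and genotype groups with SE (filled, adjusted p under 0.05; open, not passed) and coloured points are the 4 groups; estimates with a group at 0 reads (Oasl1, Cmpk2 and Oas2) are left out. Rsad2 stands at 5.58 and Gbp7 at -0.48.

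Within single sex and genotype groups, with 2 controls against 4 phagocytosis libraries, 0 of 43 genes passed edgeR's test in any group, where 0.581% of all genes passed in WT and 0.459% in NL4-/- females, and 0.326% in WT and 0.602% in NL4-/- males. At an unadjusted p under 0.05 there were 14, 24, 17 and 17 genes of the set in that order, with 12.1%, 9.56%, 8.20% and 10.8% of all genes. DESeq2 called 7, 9, 5 and 12 genes of the set in that order. Its calls in total were 217, 156, 85 and 151. These are 3.73%, 2.52%, 2.07% and 2.52% of the 5810, 6190, 4101 and 6000 genes to which it gave an adjusted p. Those are fewer than the 9803 genes behind the edgeR shares, so the DESeq2 shares would be lower over 9803. The median log2 fold change of the set was 1.27 (WT) and 1.65 (NL4-/-) in females and 1.44 (WT) and 1.53 (NL4-/-) in males. Without the 3 Gm10800-rich controls edgeR called 0 of 43 in each of the 3 groups that lose a library. There the median in NL4-/- females was 1.80, with 5 genes at an unadjusted p under 0.05 (0.0281% of all genes called, 3.54% at an unadjusted p under 0.05). In WT males it was 1.29, with 2 genes (0% and 4.76%), and in NL4-/- males 2.13, with 4 genes (0.00938% and 6.80%). The smallest p-values with all controls belonged to Rtp4 and Bst2 in female WT (log2 fold changes 2.29 ± 0.72 and 1.70 ± 0.53), to Zbp1 and Ifit3 in female NL4-/- (3.44 ± 1.04 and 4.16 ± 1.37), to Bst2 and Rtp4 in male WT (1.73 ± 0.53 and 2.11 ± 0.70), and to Rtp4 and Ifitm3 in male NL4-/- (3.28 ± 0.99 and 3.46 ± 1.04).

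The genotypes were compared in the phagocytosis state first, with 4 libraries against 4 in each sex. No gene of the set was called in females or in males by edgeR (0 of 43 in each, 0% of all genes in each) or by DESeq2 (0 of 43 in each, 0.0306% and 0% of all genes). At an unadjusted p under 0.05 there were 0 and 3, with 5.20% and 4.74% of all genes. The median log2 fold change, NL4-/- against WT, was 0.12 in females and -0.44 in males. Both medians moved with single libraries. The female value was -0.23 without female NL4-/- 1 and -0.03 without female WT 1, and the male value was -0.08 without male WT 2 and -0.91 without male NL4-/- 1. For 0 of the 43 genes were the genotypes apart without overlap in either sex, where 3.29% of all genes in females and 2.50% in males were.

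In males the smallest p-values were those of Stat2 and Eif2ak2. Stat2 was at 66.4, 176, 92.4 and 59.4 CPM in male WT and at 92.4, 63.0, 25.9 and 23.7 CPM in male NL4-/- phagocytosis libraries 1 to 4. The WT libraries were higher on average and the groups overlapped, with a log2 fold change of -0.94 ± 0.37 (unadjusted p = 0.0179 by edgeR, adjusted p = 1). Eif2ak2 was at 81.0, 92.7, 74.5 and 37.4 CPM in male WT and at 63.4, 53.4, 42.7 and 21.7 CPM in male NL4-/- (-0.64 ± 0.27, adjusted p = 1). In females they were those of Zbp1 and Dhx58. Zbp1 was at 14.0, 26.9, 31.1 and 24.1 CPM in female WT and at 91.1, 67.1, 16.2 and 23.7 CPM in female NL4-/- (1.03 ± 0.60, adjusted p = 0.964), so that 2 of the NL4-/- libraries were above all WT libraries and 2 lay among them. Dhx58 had a log2 fold change of 0.61 ± 0.41 (adjusted p = 0.964).

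**Figure D3:**
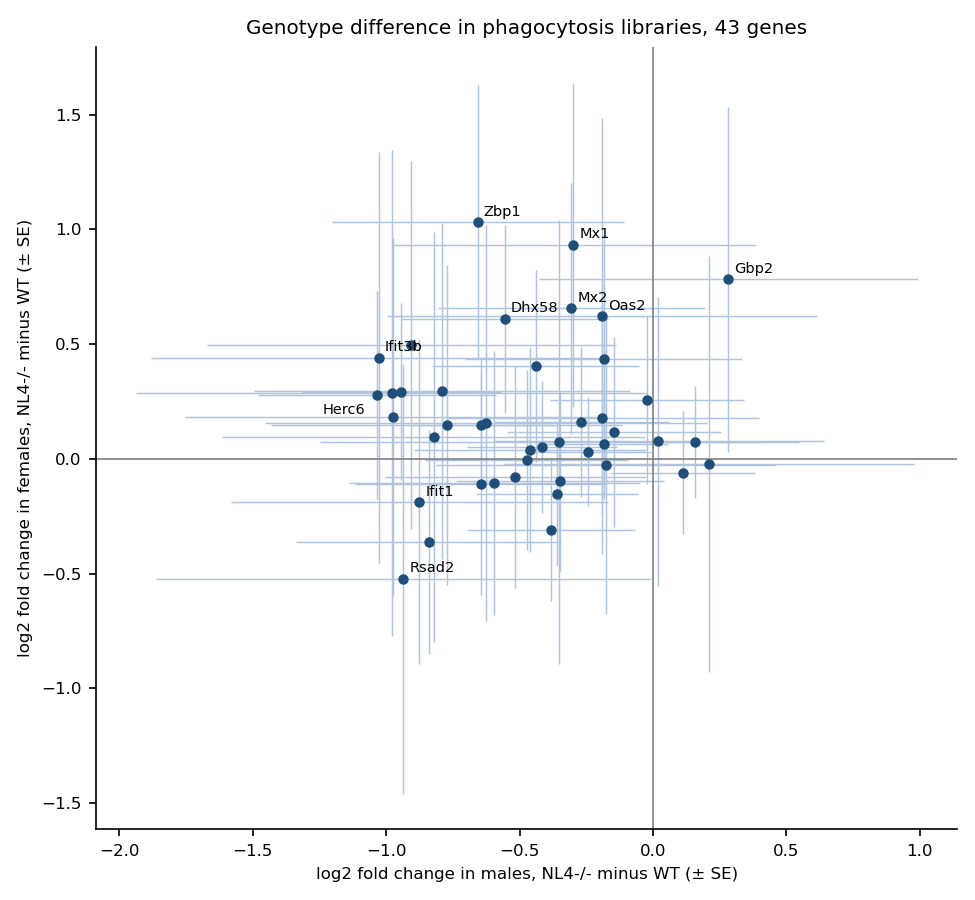
Log2 fold change between NL4-/- and WT in phagocytosis libraries, males on the x axis and females on the y axis, for the 43 genes tested, with bars of 1 SE. Points lie mostly left of 0 (male median -0.44) and around 0 in females (median 0.12), and the bars of most genes cross 0 on at least 1 axis.

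The test of a different genotype effect between the sexes called 0 of 43 genes (0% of all genes; DESeq2 0 of 43, 0.0204% of all genes). Its median was 0.50, female minus male, but 0.09 without male WT 2, and 4 genes had an unadjusted p under 0.05 (4.76% of all genes), led by Stat2 (1.24 ± 0.54) and Herc6 (1.31 ± 0.64). In controls, with 2 libraries in each group, 0 of 43 passed in females and 0 of 43 in males (0% of all genes in each), with medians of -0.29 and -0.60. DESeq2 called 0 in each (0.0408% and 0.0510% of all genes), and at an unadjusted p under 0.05 there were 0 and 1 (2.14% and 3.35% of all genes). The NL4-/- libraries were both below both WT libraries for 15 genes and both above for 5 in females, and for 21 and 1 genes in males, where 35.7% and 33.8% of all genes were apart without overlap in 1 direction or the other. Without the Gm10800-rich controls edgeR called 0 of 43 in either sex (0.00938% of all genes in females, 0% in males), with medians of -0.27 and -1.10, and 0 and 1 had an unadjusted p under 0.05 (1.09% and 2.86% of all genes). With all controls the lowest unadjusted p in male controls was that of Trim30a (-0.85 ± 0.38), followed by Rtp4 (-1.82 ± 1.22), and in female controls those of Eif2ak2 (-0.72 ± 0.41) and Stat2 (0.87 ± 0.58). In the test of a state difference that depends on genotype 0 of 43 genes passed in either sex (0% of all genes in each), with medians of 0.51 in females and 0.18 in males. DESeq2 called 0 (0.0408% and 0.0204% of all genes), and 0 had an unadjusted p under 0.05 (2.57% and 2.51% of all genes). The female median was 0.13 without female NL4-/- phagocytosis 1. The male median was -0.22 without male NL4-/- phagocytosis 1 and -0.05 without male WT control 1. Without the Gm10800-rich controls edgeR called 0 of 43 (0.00938% of all genes in females, 0% in males), the medians were 0.40 and 0.63, and 0 and 1 had an unadjusted p under 0.05 (1.77% and 2.59% of all genes). Eif2ak2 (0.87 ± 0.50) and Oas2 in females, Trim30a (0.60 ± 0.45) and Ifitm3 (1.63 ± 1.31) in males had the smallest p-values.

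Libraries of one group differed widely in the level of the set. The mean log2 CPM of the 43 genes was 4.18 to 5.17 in controls, the highest being male WT 1. In the phagocytosis libraries it was 5.45, 5.57, 5.91 and 6.12 in female WT 1 to 4, and 6.70, 6.15, 5.01 and 5.45 in female NL4-/- 1 to 4. It was 5.87, 7.26, 6.36 and 5.60 in male WT 1 to 4, and 6.89, 5.87, 5.44 and 4.64 in male NL4-/- 1 to 4. The lowest 2, female NL4-/- 3 and male NL4-/- 4, thus lay within the range of the controls. As a sum, the set took 9586 CPM in male WT 2, 7931 CPM in male NL4-/- 1 and 6954 CPM in female NL4-/- 1, and 2088 CPM in female NL4-/- 3. The microglia markers summed to 37711, 37638 and 37735 CPM in those 3 high libraries and to 56787 CPM in female NL4-/- 3, but their lowest sum, 31419 CPM, was in male WT 1, whose level of the set was 5.87; their part in these differences was not tested.

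**Figure D4:**
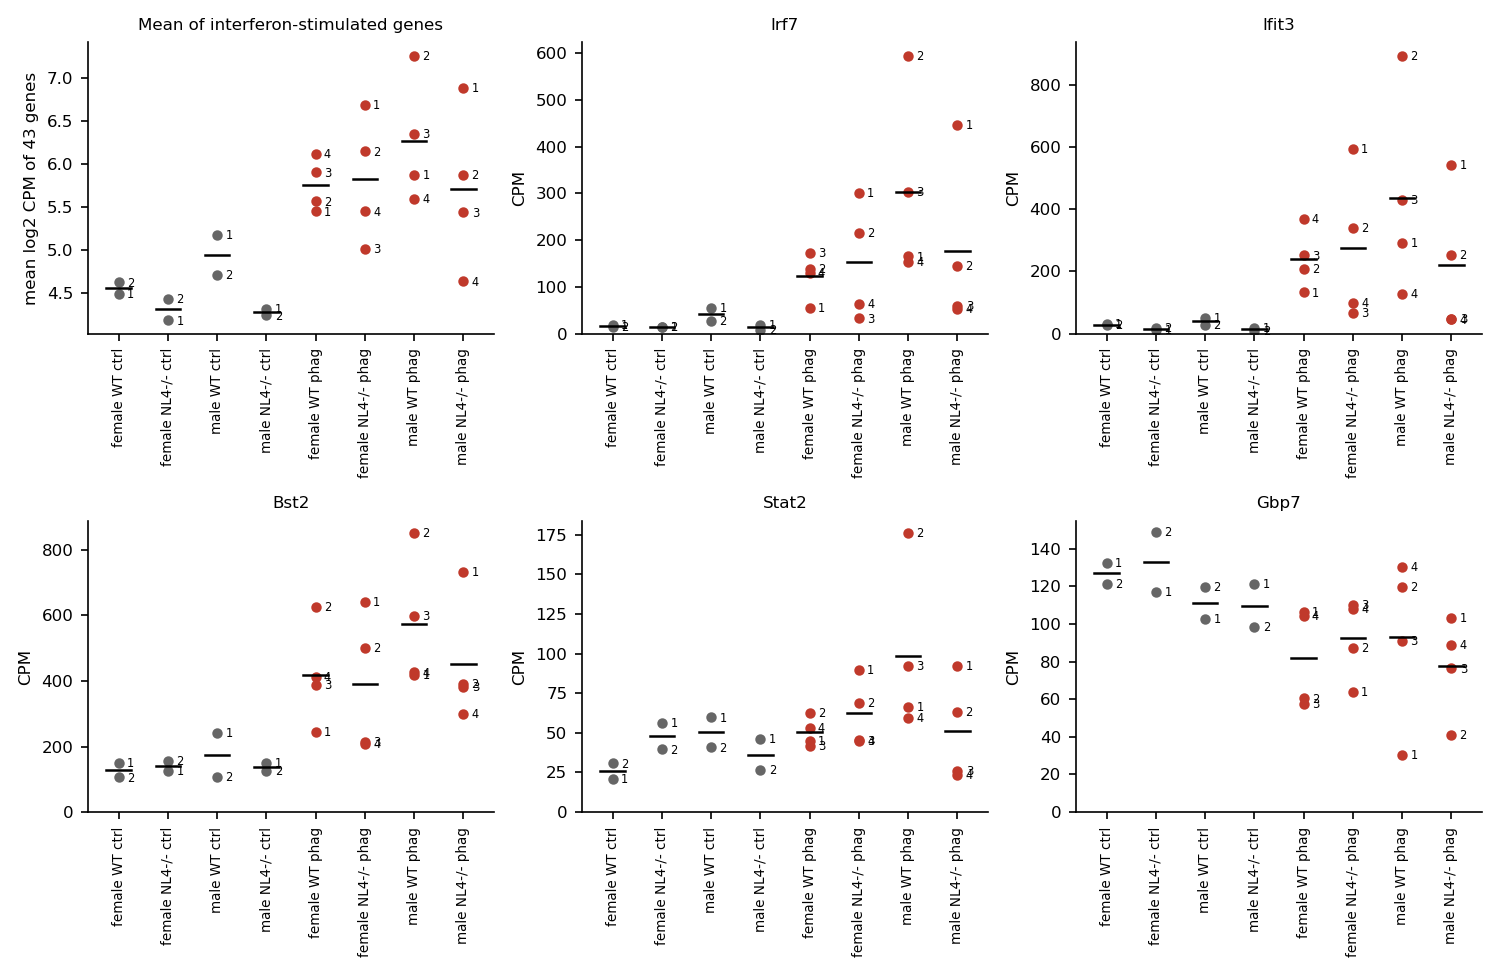
Mean log2 CPM of the 43 genes and CPM of Irf7, Ifit3, Bst2, Stat2 and Gbp7 in each library, by group (grey, controls; red, phagocytosis; numbers, library numbers; bars, group means). Male WT 2 is the highest phagocytosis library in the panels of the mean (7.26), Irf7 (594 CPM), Ifit3 (892 CPM), Bst2 (850.4 CPM) and Stat2 (176 CPM), but not in that of Gbp7.

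The genes varied together across these libraries. With group means removed, the median Pearson r over the 903 pairs of the 43 genes was 0.64 in the 16 phagocytosis libraries, against 0.00 over pairs of all genes tested, and 65.7% of pairs were above 0.5 against 5.95%. All points share their library and its depth, and correlations are given as a description. The median was 0.62 by Spearman's rho, and 0.49 without male NL4-/- 1 and male WT 2, the 2 libraries farthest from the median level. It was 0.82 within female NL4-/-, 0.81 within male WT and 0.80 within male NL4-/-, but 0.36 within female WT (4 libraries each). In the 8 controls it was 0.16, which is not comparable with the phagocytosis value. Control groups of 2 leave mirrored deviations, and some genes had few control reads in all (Cmpk2 10, Oas3 13, Rsad2 24). No control value can be had without the Gm10800-rich libraries, because 1 group alone then keeps more than a single control. The first principal component held 62.5% of the variance of the set and 17.3% of that of all genes. The set also spread more than other genes: the median SD within groups was 0.81 on the log2 scale against 0.46 for all genes, and 15 genes had an SD above 1, where 4.89% of all genes did.

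Correlated with the mean of the other 42, a gene of the set had a median r of 0.82, and 38 of 43 were above 0.5, where 5.65% of the genes outside it were. Zbp1 (0.94), Usp18 (0.94) and Ifit3 (0.93) were closest to the mean. Gbp7 (0.02), Ifi35 (0.33) and Dtx3l (0.34) were farthest, and Gbp7 came nearest to its neighbour Gbp3 (0.71). Several genes that did not pass between the states still followed the others within groups, such as Sp100 (0.90), Parp14 (0.90), Stat2 (0.90) and Ifih1 (0.70). Ifi35, which rose, followed the set loosely, and without the 2 farthest libraries its r was -0.14. The genes outside the set with the closest pattern over the 16 libraries were Helz2 (0.94), Rnf213 (0.93), Trex1 (0.92) and Ccl5 (0.91).

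**Figure D5:**
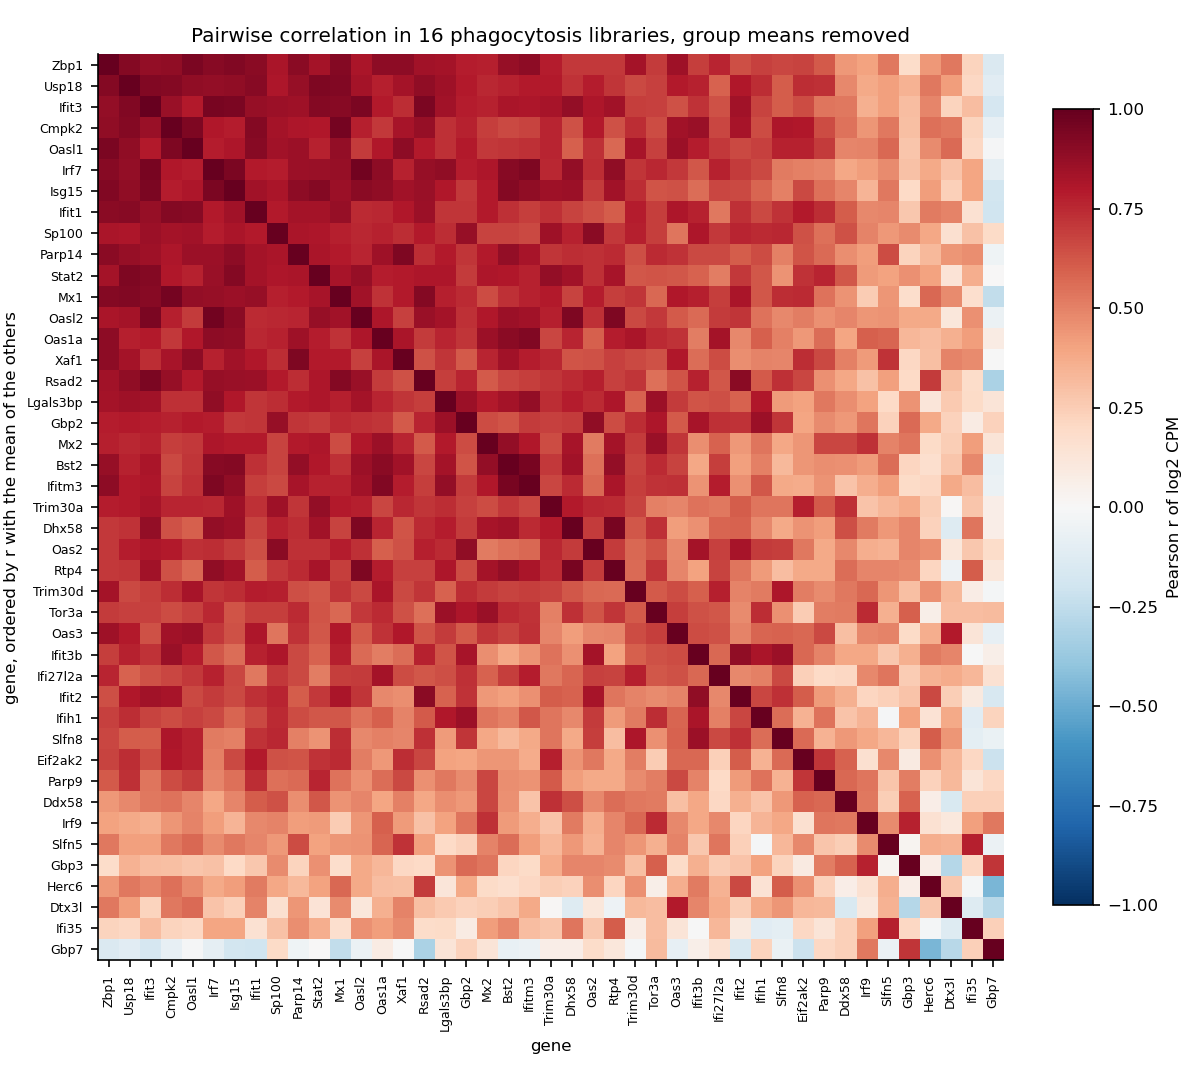
Pearson r of log2 CPM between each pair of the 43 genes in the 16 phagocytosis libraries, with group means removed and genes ordered by their r with the mean of the others, from Zbp1 (0.94) to Gbp7 (0.02). Most pairs are positive (median 0.64), and the last rows, from Gbp3 to Gbp7, are paler.

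Other genes of the pathway did not move as a block. Their counts are to be read against the 8.41% of all genes that rose and the 5.18% that fell. Of 21 interferon ligand genes 14 had 0 reads in all 24 libraries, Ifng among them, and the other 7 had 21 reads together; none passed the filter. Ifnb1 had 7 reads, 6 of them in female WT phagocytosis 4. A count of 0 allows up to 7.15 CPM in the shallowest library and 2.97 CPM in the deepest. Of 8 receptor and Janus kinase genes tested 0 rose and 2 fell, Ifngr1 (-0.72 ± 0.16, adjusted p = 0.0044) and Jak1 (-0.44 ± 0.12, adjusted p = 0.0155). Ifnar1 was at 136 ± 25.2 CPM in controls and 132 ± 14.8 CPM in phagocytosis libraries (SD, n = 8 and 16), and Ifnar2 at 218 ± 24.2 and 229 ± 34.1 CPM.

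Of 24 genes of nucleic acid sensing 2 rose, the kinase Ikbke (2.85 ± 0.37, adjusted p = 3.77e-06) and the RNA editor Adar (0.56 ± 0.17, adjusted p = 0.0288), and 1 fell, Tmem173, the gene of STING (-0.54 ± 0.15, adjusted p = 0.018), which is close to the share of all genes in each direction. Among 17 negative regulators tested, the STAT inhibitor Pias3 fell (-0.63 ± 0.18). A further list of interferon-stimulated genes outside the set had 24 of 61 higher and 1 lower, with a median of 0.61 against -0.01 over all genes. This list, too, was chosen with earlier results of these data known. It was led by Ifitm2 (1.68 ± 0.24, adjusted p = 1.24e-05), Slfn2 (1.26 ± 0.21), the chemokine Ccl7 (2.93 ± 0.45) and Phf11b (1.66 ± 0.34). Over all pathway lists together, genes not reported here included, 28 genes rose and 5 fell of 119, and 33 calls became 9 of 127 without the 3 Gm10800-rich controls, 19 without male WT control 2 and 20 without female WT control 2.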

How the data were processed

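The deposited files hold, per transcript, the authors' expected counts of reads and TPM, per the file headers; the quantifier, its index and any read filter were not given in the sources used here. Expected counts were summed per gene (GENCODE vM21; 0.274% to 0.379% of reads had no match) and rounded. The authors' deposited TPM were summed per gene and used only to compare levels between genes. Genes were kept by edgeR's filterByExpr with a minimum count of 10 (9803 genes) and fitted in 1 model of 8 groups over the 24 libraries with TMM and edgeR 4.0.16's quasi-likelihood test (R 4.3.3; common dispersion 0.0812), two-sided, with Benjamini-Hochberg adjustment over all genes tested. Fold changes of genes with a group at 0 reads depend on the prior count, and bounds with 3 reads are given. Log2 CPM used a prior count of 2. The scripts were tested on simulated data. No 2 libraries agreed within sampling noise (28 pairs within groups, chi-square per gene 2.67 to 18.6). Intervals are exact at 95%. DESeq2 1.42.0 and other settings were alternatives.

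The genes named are, in each role, up to 3 with the highest mean CPM, in each comparison up to 6 a direction with the smallest adjusted p or 2 with the smallest p, up to 4 in each pathway list, and the 3 closest to and farthest from the mean; others are named to account for the set. The members and lists were chosen with earlier results of these data known. Promoters are from RefSeq (GRCm38.p6). Some results on single genes are not reported here.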

Additional observations from a re-analysis of the deposited data

Results flagged for a closer look

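For 24 genes of the set and for its mean and sum, the 4 phagocytosis libraries of each group were searched for 1 library far from the other 3, by Dixon's rule at its 95% critical value. Of 104 sets of 4 libraries 4 had such a library, where chance gives about 1 in 20. Ifit1 was at 203 CPM in female NL4-/- 1 and at 36.0 to 50.8 CPM in the other female NL4-/- libraries. Tor3a was at 352 CPM in the same library and at 170.5 to 201 CPM in the others. Usp18 was at 181 CPM in male WT 2 and at 45.2 to 65.6 CPM in the other male WT libraries. Oasl2 was low in 1 library, at 23.1 CPM in female WT 1 and at 57.5 to 60.9 CPM in the other female WT libraries.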

How the results depend on the processing

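The 29 genes that rose between the states became 23 (without male WT control 2) to 33 when 1 library was left out, 22 of them called in each of the 24 fits, and 7 without the 3 Gm10800-rich controls, an alternative that leaves fewer samples. No other alternative moved that count by over 1.5 times. Within groups the count of 0 stayed 0 in every leave-one-out fit. Without the filter on low counts it was 3 (WT) and 4 (NL4-/-) in females and 2 (WT) and 2 (NL4-/-) in males, and by DESeq2 7, 9, 5 and 12 in that order. From phagocytosis libraries 1 and 2 it was 12 in NL4-/- females, 7 in WT males and 10 in NL4-/- males, and from libraries 3 and 4 it was 9 in female WT, 4 in male WT, 2 in male NL4-/-; the cause was not tested. No pairing of samples by library number was seen, which with 4 libraries a group does not exclude one. Of 8 same-numbered pairs of phagocytosis libraries, 1 had a correlation of deviations above 0.1. Of 8 WT phagocytosis libraries, 2 correlated best with their own number. With the replicate block the counts were 34 between the states, 3 in WT females, 1 in NL4-/- females and 1 in NL4-/- males. Counts for genotype and interactions were 0 under each alternative run. The pathway lists gave 19 to 37 calls with 1 library left out and 9 without the Gm10800-rich controls, the latter chosen after seeing the data, as was leaving out these controls in every comparison but that of the mean over groups. The median r was 0.58 to 0.69 with 1 library left out. Gbp3 turned sign to 0.0172 with the block and was -0.27 to 0.17 with 1 library left out; Dtx3l was -0.000817 with the block, -0.0215 without the 3 Gm10800-rich controls and -0.16 to 0.43 with 1 left out. A count of 0 in the shallowest library allows a level of up to 7.15 CPM.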
